A study of Mus musculus with 12 samples.

Results

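The genes described here make and protect newly copied DNA. They are 39 mouse genes for deoxynucleotide supply, DNA polymerases, the sliding clamp and its loader, the GINS complex and Cdc45, Okazaki fragment maturation, single-stranded DNA binding, chromatin replication, and DNA repair. They were chosen by name, with earlier results of these data known, and without genes that license replication origins. They make up 39 of the 35303 gene symbols in the counts. All 39 were among the 17676 symbols with enough counts to be tested. Bulk RNA-seq compared 3 groups of myeloid-derived suppressor cells (MDSCs), which are immunosuppressive myeloid cells, with 4 libraries per group. Bone marrow of female wild-type C57BL/6 mice aged 6 to 10 weeks was cultured with IL-6 and GM-CSF, and CD11b+Gr1+ cells, a mixture of polymorphonuclear and monocytic MDSCs, were purified. The groups were unmodified MDSCs (MDSC), MDSCs with blank PLGA nanoparticles clicked to azido groups on their surface (MDSC-NP-Blk), and MDSCs with rapamycin-loaded particles (CITED). Rapamycin inhibits the growth kinase mTOR. All 3 groups were then kept for 24 hours with IL-6 at 40 ng/ml, and the methods do not say whether the unmodified cells also carried azido groups. The labels give the tissue as CNS, although by the methods these were cultured cells. The MDSC markers S100a8 and S100a9, genes for a calcium-binding protein pair of myeloid cells, were abundant in every group, at means of 10658 to 15652 CPM. They belong to a list of 10 MDSC and myeloid identity genes. Between CITED and MDSC, 6 of the 10 were higher and 2 lower (edgeR adjusted p below 0.05), against 22.2% of all tested genes each way. Between MDSC-NP-Blk and MDSC, 9 were higher and 0 lower, against 19.9% and 18.6%. CPM values here are counts scaled by library size and by the trimmed mean of M values, not by library totals alone.

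A cell that copies its genome needs balanced deoxynucleotides, which ribonucleotide reductase makes from ribonucleotides. Primase and polymerase alpha start each DNA strand, the clamp loader places the PCNA ring, and polymerases delta and epsilon extend from it. Many of these genes are induced together at the start of S phase by E2F transcription factors, which the retinoblastoma family of pocket proteins holds back in resting cells. Granulocyte and monocyte precursors of the bone marrow divide, whereas mature neutrophils do not.

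Each library had 20604746 to 37855405 counts on tested genes. Values below are normalized counts, that is, counts scaled by library size and by the trimmed mean of M values to the mean library. Fold changes are log2 values with their standard error (SE), from edgeR's quasi-likelihood test fitted to all 12 libraries. A gene is said to have fallen where its adjusted p-value was below 0.05, and to have been called where the log2 fold change was also −1 or less, the thresholds of the study. The lowest count of any of the 39 genes in any library was 51. Sequence shared with other genes could divide reads differently for 6 of them, each with at least 10% of its 31-base words in other transcripts: Pcna (38.0%), Uhrf1 (29.0%), Rpa3 (21.2%), Tyms (20.2%), Rrm2 (12.9%), and Rfc5 (11.2%). For 14 genes at least 10% of the exon bases lie under exons of a gene on the other strand, and no source used here says whether strand was used in counting. Both kinds of overlap were below 10% for 22 genes, and all 22 were lower in CITED than in MDSC.

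Nearly the whole group was lower in CITED than in unmodified MDSCs. Of the 39 genes, 38 fell, against 22.2% of all tested genes, and 0 rose. Called as lower were 25, against a background of 6.70%. In 38 genes all 4 CITED libraries lay below all 4 MDSC libraries, which held for 21.2% of all genes. The median log2 fold change was −1.30, compared with −0.05 over all tested genes, and single genes ranged from −2.26 for Pole to −0.14 for Rfc2. The 39 genes summed to 52437 ± 692 normalized counts in MDSC, to 32966 ± 1498 with the blank particle, and to 22167 ± 160 in CITED (SD, n = 4). The 3 groups did not overlap in this sum, since single libraries ranged from 51556 to 53060, from 31447 to 34841, and from 22048 to 22400.

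Part of this difference was already present between MDSC-NP-Blk and MDSC. Between MDSC-NP-Blk and MDSC, 34 of the 39 genes fell (background 18.6%), 8 were called (2.86%), and 35 did not overlap (17.4%), with a median of −0.76 against −0.03 over all genes. Between CITED and MDSC-NP-Blk, which differ in the rapamycin load, 35 fell (11.4%), 6 were called (2.00%), and 32 did not overlap (10.8%), with a median of −0.67 against 0 over all genes. The 2 steps share the MDSC-NP-Blk libraries, so their values are not independent. No gene of the 39 rose in either step, although Rfc2 passed as higher with the blank particle when a trend with transcript length was removed (a length correction) and the replicate number entered as a block (0.14, adjusted p = 0.0484). The 8 called with the blank particle were Rrm2, Pola1, Pole, Uhrf1, Chaf1a, Brca1, Brca2, and Exo1, and the 6 called with the rapamycin load were Rrm1, Rrm2, Tk1, Pole, Rad51ap1, and Brca1. Without MDSC-NP-Blk 3 the latter count was 3, and over all genes 326 in place of 354 were called lower in that step. Scaling by library totals alone moved the median of all genes to −0.32 between CITED and MDSC, where it gave 6323 genes lower and 2192 higher in place of 3932 and 3930, and to −0.29 with the blank particle, where it gave 6107 and 1662 in place of 3293 and 3522. Under that scaling all 39 genes were lower in both of these comparisons, and 21 in place of 8 were called with the blank particle. Over all genes, 1060 in place of 505 were then called lower with the blank particle. Relative to its MDSC mean, the median gene stood at 57.2 to 63.6% in the MDSC-NP-Blk libraries and at 38.5 to 41.6% in the CITED libraries. In bulk RNA, fewer cells that express a gene and less of its RNA per cell cannot be told apart.

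**Figure D1:**
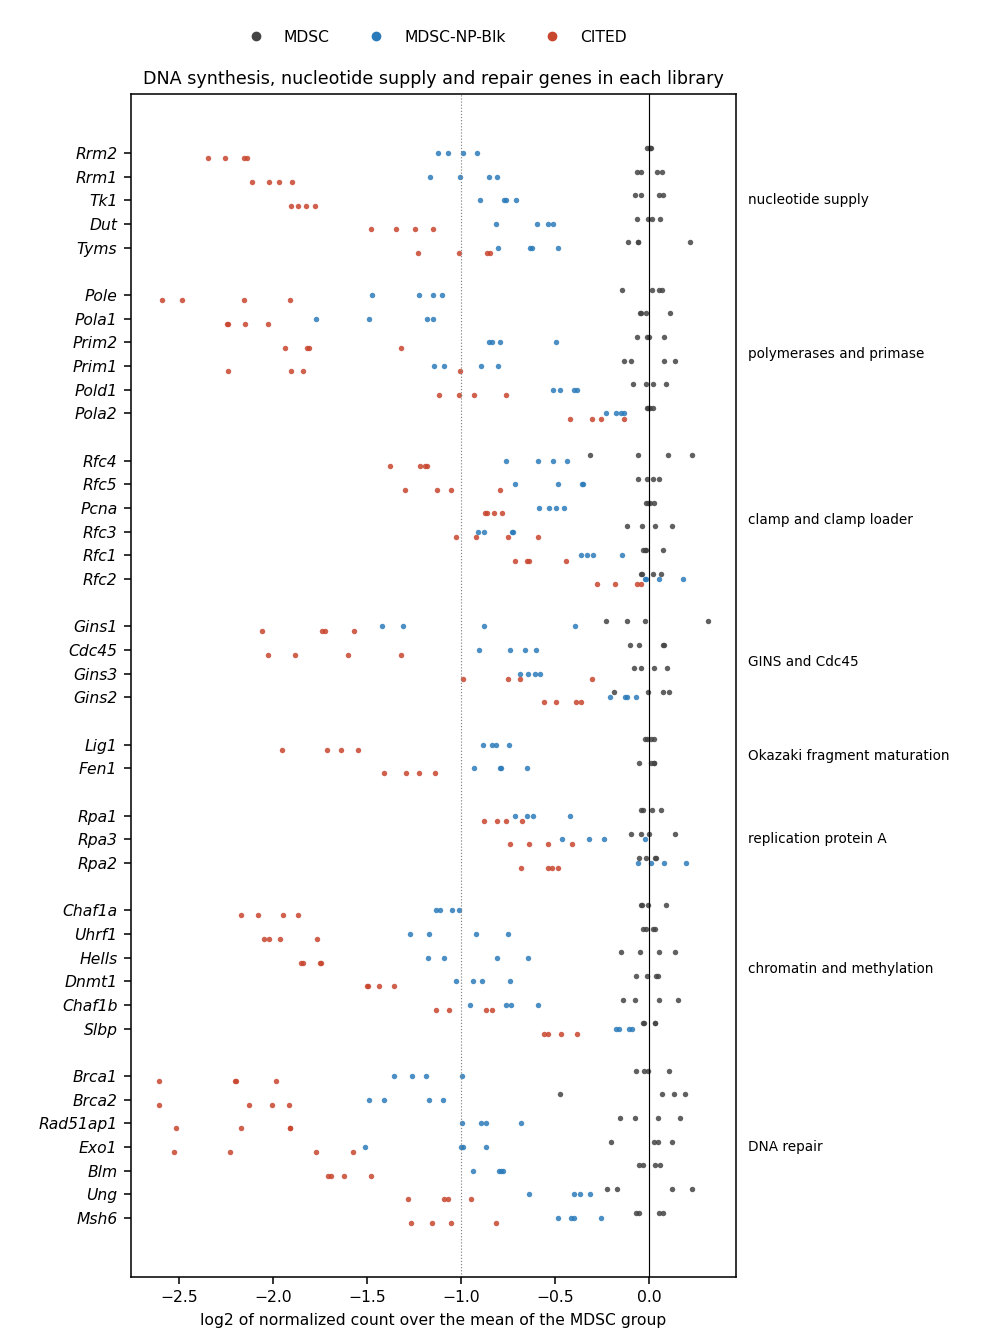
Normalized count of each of the 39 genes in each of the 12 libraries, as log2 over the mean of the 4 MDSC libraries (x axis), with genes grouped by role (y axis). Points are single libraries, the solid line marks the MDSC mean, and the dotted line marks a log2 value of −1. All CITED points lie left of all MDSC points in 38 genes, and Rfc2 is the exception.

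Promoters of 3 genes are shown because these genes lay at opposite ends of the pattern, a choice made after their values were seen: Pola1 had a large fold change, Rfc3 fell with the blank particle, and Rpa2 did not pass the threshold in that step. The sequences run from 250 bases before the start site of the GENCODE canonical transcript through the next 50 bases, 5′ to 3′ on the strand of the gene, from GRCm39. They lie at chrX:92675764-92676063 (minus strand), chr5:151574658-151574957 (minus strand), and chr4:132495396-132495695 (plus strand). Capitals mark matches to an E2F motif, here any of TTTCCCGC, TTTCGCGC, TTTGCCGC, and TTTGGCGC on either strand.
Pola1: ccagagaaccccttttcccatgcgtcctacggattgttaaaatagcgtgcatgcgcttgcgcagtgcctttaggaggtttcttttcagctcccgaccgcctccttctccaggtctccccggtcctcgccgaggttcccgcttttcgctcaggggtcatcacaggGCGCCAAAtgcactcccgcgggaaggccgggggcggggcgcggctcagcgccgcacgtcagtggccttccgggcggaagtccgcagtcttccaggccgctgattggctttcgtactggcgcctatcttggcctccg
Rfc3: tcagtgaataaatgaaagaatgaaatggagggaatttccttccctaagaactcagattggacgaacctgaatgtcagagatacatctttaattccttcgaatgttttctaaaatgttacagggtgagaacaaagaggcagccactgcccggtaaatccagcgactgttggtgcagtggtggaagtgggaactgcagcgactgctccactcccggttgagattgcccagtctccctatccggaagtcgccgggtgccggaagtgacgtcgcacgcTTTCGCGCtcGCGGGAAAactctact
Rpa2: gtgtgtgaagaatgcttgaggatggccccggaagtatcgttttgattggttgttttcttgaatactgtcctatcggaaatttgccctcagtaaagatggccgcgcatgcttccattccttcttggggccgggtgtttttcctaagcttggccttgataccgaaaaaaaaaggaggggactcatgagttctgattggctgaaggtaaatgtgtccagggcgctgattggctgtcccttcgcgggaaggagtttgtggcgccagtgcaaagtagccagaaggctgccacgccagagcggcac
With the start site as 0, the first base of the match was at −86 in Pola1 and at 24 and 34 in Rfc3, and none was found in this window of Rpa2. Among the 39 genes, 6 (15.4%) had such a match, compared with 2.825% of 21738 protein-coding promoters of the same length. The median log2 fold change between CITED and MDSC was −1.97 in these 6 (range −2.26 to −0.81) and −1.24 in the other 33. The 6 also differ in transcript length from the 39 genes, whose median is 3175 bases. Brca2, Pole, Hells, and Pola1 have 5406 to 13419 bases, and Gins1 and Rfc3 have 1115 and 1317. The split was not repeated with the length correction. The letters CCAAT, the core of the NF-Y box, were found on either strand in 20 of the 39 promoters (51.3%) and in 39.9% of all, once in Pola1 and Rfc3 and at 3 places in Rpa2. The CHR motif TTTGAA of late cell cycle genes was found in 2 of the 39 (5.13%) and in 17.1% of all. No CCAAT match overlapped an E2F match in the 3 sequences shown, and a match describes letters and not a bound site.

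Nucleotide supply fell in all 5 of its genes in every comparison, with a median of −1.84 between CITED and MDSC. Rrm1 encodes the large subunit of ribonucleotide reductase, and its normalized counts were 5161, 4791, 5264, and 4870.2 in MDSC, 2237, 2782, 2861, and 2496 with the blank particle, and 1344, 1236, 1282, and 1162 in CITED. The small subunit gene Rrm2, which is normally restricted to S phase, had 3583, 3618, 3614, and 3629, then 1657, 1819, 1914, and 1720.3, then 819, 710.5, 756, and 812 in the same order. The 3 groups were separate for both genes. Compared to MDSC, Rrm1 was 4.00-fold and Rrm2 4.66-fold lower in CITED, with log2 fold changes of −2.00 ± 0.066 and −2.22 ± 0.062 (SE; edgeR adjusted p = 1.01e-22 and 1.03e-24). The change in each step was −0.95 and −1.02 with the blank particle and −1.05 and −1.20 with the rapamycin load, for Rrm1 and Rrm2. Tk1, the thymidine kinase of the salvage pathway, went from 1061 ± 53.2 to 615 ± 34.1 to 296 ± 11.3 (SD, n = 4), a log2 fold change of −1.84 ± 0.080 between CITED and MDSC. Dut, which removes dUTP, went from 1117 ± 38.3 to 731 ± 67.4 to 454 ± 44.0. Tyms, thymidylate synthase, changed less, from 513 ± 55.2 to 331 ± 29.6 to 260.2 ± 30.8, and was the only one of the 5 not called in CITED against MDSC (−0.98 ± 0.10). Its fall between CITED and MDSC-NP-Blk (−0.35 ± 0.11, edgeR adjusted p = 0.0164) was lost without MDSC-NP-Blk 3 (adjusted p = 0.0627) or CITED 2 (0.0843).

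Polymerases and primase had a median of −1.69 between CITED and MDSC, and all 6 fell. Pole encodes the catalytic subunit of the leading strand polymerase epsilon and had the largest fold change of the 39 genes in the main fit. Its lead over Rrm2 (−2.22) was within its SE. Across the alternative fits Pole ranged from −2.53 to −1.94 and Rrm2 from −2.50 to −2.18, so this rank is not fixed. Its normalized counts were 799, 688, 789, and 769.9 in MDSC, 274, 343, 354, and 326 with the blank particle, and 127, 203, 171, and 136 in CITED, with no overlap between groups. The log2 fold change was −2.26 ± 0.12 between CITED and MDSC (edgeR adjusted p = 6.97e-18), a 4.79-fold lower level. Pola1, the catalytic subunit of the priming polymerase alpha, had 803, 819, 895, and 805 in MDSC, 296, 367, 374, and 243 with the blank particle, and 176, 204, 188, and 176 in CITED. Its fall with the blank particle, −1.37 ± 0.10, was the largest of the 39 genes in that comparison. Pola2, the accessory subunit of the same polymerase, had 646, 651, 654, and 661, then 556, 596, 577, and 588, then 528, 487, 594, and 546. The log2 fold changes between CITED and MDSC were −2.16 ± 0.11 for Pola1 and −0.28 ± 0.078 for Pola2 (edgeR adjusted p = 5.89e-18 and 0.00362). For Pola2, neither the blank step (−0.17 ± 0.078, adjusted p = 0.0823) nor the rapamycin step (−0.11 ± 0.079, adjusted p = 0.394) passed the threshold. The blank step of Pola2 did pass with 6 of the 10 other processing choices, with values of −0.43 to −0.17. The primase subunits Prim1 and Prim2, which lay the RNA primer, were at −1.68 ± 0.16 and −1.70 ± 0.12, and Pold1, the catalytic subunit of polymerase delta, at −0.95 ± 0.075. Prim1 varied most among the CITED libraries, at 186, 104, 78.8, and 99.6, and CITED 1 lay within the MDSC-NP-Blk range of 168 to 214.

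The sliding clamp and clamp loader showed smaller differences, with a median of −0.83 between CITED and MDSC and 2 of 6 genes called. Pcna, the ring that holds polymerases on DNA, had 4628, 4763, 4704, and 4658 normalized counts in MDSC, 3233, 3327, 3424, and 3127 with the blank particle, and 2723, 2574, 2558, and 2648 in CITED. The groups were separate, and the log2 fold change was −0.84 ± 0.049 between CITED and MDSC. Among the loader subunits, the shared small subunits Rfc4 and Rfc5 fell most (−1.24 ± 0.12 and −1.06 ± 0.091), followed by Rfc3 (−0.81 ± 0.12) and the large subunit Rfc1 (−0.61 ± 0.066). Rfc2, another small subunit, had 1689, 1820.4, 1768, and 1697 in MDSC, 1972, 1804, 1718, and 1723 with the blank particle, and 1665, 1689.9, 1435, and 1535 in CITED. Its MDSC and CITED libraries overlapped, and it was the only one of the 39 genes that did not fall in that comparison (−0.14 ± 0.064, edgeR adjusted p = 0.0717). Against MDSC-NP-Blk it was lower in CITED (−0.19 ± 0.064, adjusted p = 0.028), a call lost without MDSC-NP-Blk 1 (adjusted p = 0.112), MDSC-NP-Blk 2 (0.0534), CITED 3 (0.144), or CITED 4 (0.0841), and also with the length correction (0.108, or 0.0742 with the replicate block). Between CITED and MDSC, Rfc2 passed as lower with DESeq2 (adjusted p = 0.0491), in a fit to the 8 libraries compared (0.0289), and without CITED 1 (0.0472) or CITED 2 (0.0369), and stood at 0.0038 with the length correction. Scaling by library totals alone turned its blank step to −0.21 (adjusted p = 0.0054) and its difference between CITED and MDSC to −0.42. Exons of a gene on the other strand cover 34.2% of the Rfc2 exon bases. Rfc3 had 261, 290.2, 276, and 308 in MDSC, 154, 172, 171, and 151 with the blank particle, and 188, 139, 169, and 149.9 in CITED. The log2 fold change with the blank particle was −0.80 ± 0.12, and the CITED libraries overlapped those of MDSC-NP-Blk (−0.01 ± 0.13, adjusted p = 1).

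**Figure D2:**
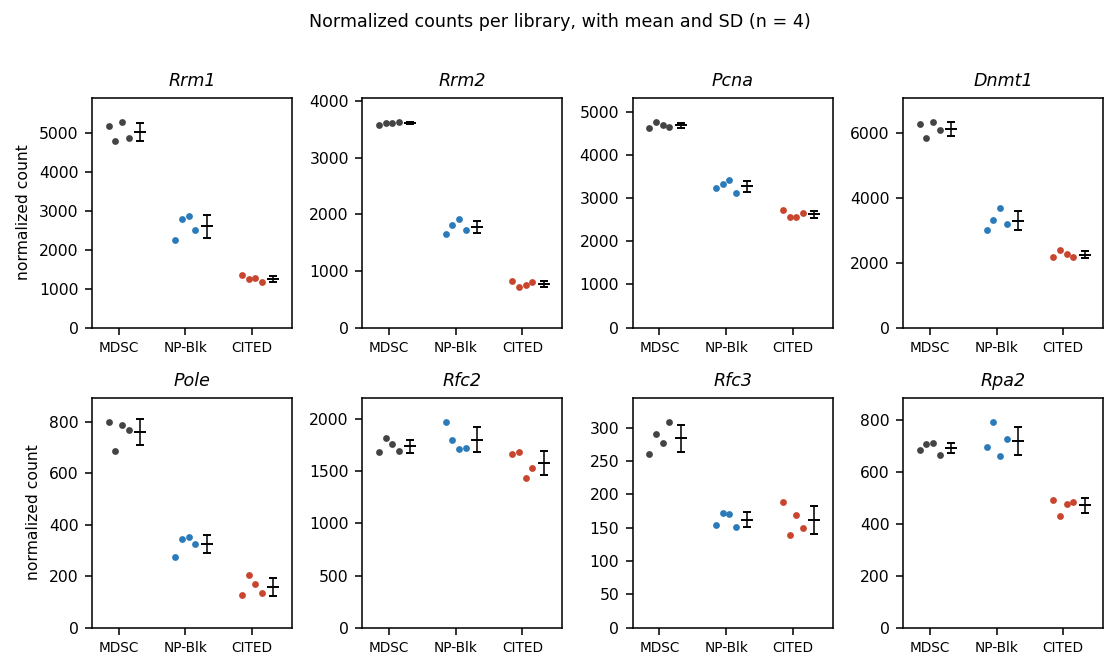
Normalized counts of 8 genes in each of the 4 libraries per group (points), with the mean and SD beside them, on linear axes that start at 0. Rrm1, Rrm2, Pcna, Dnmt1, and Pole step down from MDSC to MDSC-NP-Blk (NP-Blk) to CITED, Rfc3 steps down once, and Rpa2 is lower in CITED alone. In Rfc2 the MDSC libraries overlap both other groups, and the CITED libraries lie below those of MDSC-NP-Blk.

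The GINS complex and Cdc45 turn the loaded MCM ring into an active helicase. All 4 genes fell between CITED and MDSC, with a median of −1.17. Cdc45 had 1031, 911, 1034, and 943 normalized counts in MDSC, 644, 619, 587, and 524 with the blank particle, and 393, 241, 323, and 266 in CITED, without overlap, and a log2 fold change of −1.68 ± 0.10 (SE) from MDSC to CITED. Gins1 had 309.9, 246, 213, and 229, then 93.1, 189.6, 136, and 101, then 84.0, 74.6, 75.5, and 60.0. Its MDSC-NP-Blk libraries were the most scattered of any gene in that group, with a coefficient of variation of 33.9%, and still lay between the other groups. Gins2 was only slightly lower, at 1158 ± 101 in MDSC, 1057 ± 41.9 with the blank particle, and 847 ± 53.9 in CITED (SD, n = 4). It did not pass the threshold with the blank particle (−0.13 ± 0.073, edgeR adjusted p = 0.164) and fell with the rapamycin load (−0.32 ± 0.074). Gins3 showed the other order, with −0.63 ± 0.15 in the blank step and −0.02 ± 0.16 in the rapamycin step (adjusted p = 0.976). The difference between the steps did not pass the threshold in any of these 4 genes.

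Okazaki fragment maturation fell in both of its genes. Lig1, the ligase that seals lagging strand fragments, had 1909, 1858, 1849, and 1888 normalized counts in MDSC, 1051, 1068, 1119.5, and 1015 with the blank particle, and 484, 642, 602, and 572 in CITED. Fen1, the flap endonuclease, had 1372, 1435, 1453, and 1450.3, then 823, 827, 908, and 748, then 537, 610.2, 583, and 649. The groups were separate for both, with log2 fold changes between CITED and MDSC of −1.71 ± 0.074 and −1.26 ± 0.075. Replication protein A, the trimer that coats single-stranded DNA, had the smallest median of the roles, −0.58, and 0 of 3 genes called. Rpa1, its large subunit, had 2068, 2149, 2222, and 2078 in MDSC, 1386, 1356, 1587, and 1298 with the blank particle, and 1331, 1159, 1253, and 1215 in CITED. Rpa2, the middle subunit, had 685, 708, 711, and 667, then 696, 792, 664, and 729.7, then 494, 432, 476, and 485. In Rpa1 the MDSC libraries stood above both other groups, which overlapped each other, whereas in Rpa2 the CITED libraries stood below both other groups, which overlapped. Rpa1 was at −0.60 ± 0.065 with the blank particle, and its further difference of −0.18 ± 0.066 was close to the threshold (edgeR adjusted p = 0.0435) and was lost in 12 of 22 alternatives. Rpa2 was at 0.06 ± 0.077 with the blank particle (adjusted p = 0.587), which scaling by library totals alone turned to −0.20 (adjusted p = 0.0313), and at −0.61 ± 0.080 with the rapamycin load (adjusted p = 2.35e-07). The small subunit Rpa3 was at −0.26 ± 0.097 and −0.32 ± 0.10 in the 2 steps, both near the threshold (adjusted p = 0.0328 and 0.0171), and libraries of neighboring groups overlapped. The blank step was lost without MDSC 1 (adjusted p = 0.0577), MDSC 2 (0.118), MDSC-NP-Blk 2 (0.0854), or MDSC-NP-Blk 3 (0.131), and the rapamycin step without MDSC-NP-Blk 4 (0.109) or CITED 4 (0.0815).

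Genes that restore chromatin and DNA methylation behind the fork had a median of −1.62 between CITED and MDSC, and all 6 fell. Dnmt1, the maintenance DNA methyltransferase, had 6265, 5832, 6318, and 6069 normalized counts in MDSC, 2997, 3308, 3667, and 3196 with the blank particle, and 2162, 2386, 2262, and 2175 in CITED. Uhrf1, which recruits Dnmt1 to hemimethylated sites, had 2557, 2589, 2672, and 2656, then 1165, 1381, 1554, and 1083, then 672, 632, 769, and 645. In both genes the 3 groups were separate, with log2 fold changes between CITED and MDSC of −1.45 ± 0.057 and −1.95 ± 0.084 (edgeR adjusted p = 7.53e-21 and 7.18e-20). Chaf1a and Chaf1b encode subunits of the histone chaperone CAF-1. Chaf1a went from 1154 ± 49.0 to 548 ± 21.5 to 286 ± 26.5 (SD, n = 4), and Chaf1b from 599 ± 54.6 to 355 ± 36.2 to 306 ± 30.5. The rapamycin step of Chaf1b did not pass the threshold (−0.21 ± 0.10, adjusted p = 0.148), whereas that of Chaf1a was −0.93 ± 0.084. Hells, a chromatin remodeler needed for DNA methylation, was at −1.80 ± 0.11 between CITED and MDSC. Slbp, which binds the stem-loop of histone mRNAs, was at −0.49 ± 0.060 and had the smallest fold change of the 6. Its blank step did not pass the threshold (−0.14 ± 0.059, adjusted p = 0.0691) but did with 7 of the 10 other processing choices.

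DNA repair genes fell in all 7 cases in every comparison, and all 7 were called between CITED and MDSC, with a median of −1.98. Brca1, a homologous recombination factor, had 1032, 912, 953, and 940.0 normalized counts in MDSC, 401, 421, 481, and 374 with the blank particle, and 209, 158, 209, and 243 in CITED. Brca2, another factor of homologous recombination, had 362, 248, 393, and 377, then 130.1, 161, 153, and 123, then 79.0, 91.7, 56.6, and 86.1. No groups overlapped, although MDSC 2 was well below the other MDSC libraries in Brca2. The log2 fold changes between CITED and MDSC were −2.22 ± 0.10 for Brca1 and −2.14 ± 0.16 for Brca2. Rad51ap1, also of homologous recombination, had the largest rapamycin step of the 39 genes, with 287, 326, 281, and 263 with the blank particle and 139, 91.7, 117, and 139 in CITED (−1.25 ± 0.12, edgeR adjusted p = 9.83e-10). The nuclease Exo1 (−1.98 ± 0.16) and the helicase Blm (−1.62 ± 0.083) followed between CITED and MDSC. The mismatch recognition gene Msh6 (−1.06 ± 0.083) and the uracil glycosylase gene Ung (−1.09 ± 0.14) had the smallest fold changes of the 7. The blank step of Ung (−0.42 ± 0.13, adjusted p = 0.0114) was lost without MDSC 2 (adjusted p = 0.0677).

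The blank particle and the rapamycin load can be compared as successive steps, the change from MDSC to MDSC-NP-Blk and the change from MDSC-NP-Blk to CITED. The blank step made up a median of 50.5% of the whole log2 change, from −34.5% in Rfc2 to 98.7% in Rfc3, and over 50% in 20 of the 39 genes. The difference between the steps was tested in the same fit. It passed the threshold in 6 of the 39 genes, against 22.8% of all tested genes. In 5 the fall was larger with the blank particle (background 9.22%): Rfc3, with a difference of 0.79 ± 0.22 (log2 of the rapamycin step minus that of the blank step, edgeR adjusted p = 0.00645), Pola1 (0.57 ± 0.19), Chaf1b (0.54 ± 0.17), Rpa1 (0.41 ± 0.11), and Dnmt1 (0.34 ± 0.097). In Rpa2 it was larger with the rapamycin load (−0.67 ± 0.13, adjusted p = 2.28e-04, background 13.6%). The backgrounds of 9.22% and 13.6% also count genes whose rise was smaller in the step named. The differences for Pola1, Dnmt1, and Chaf1b each rested on single MDSC-NP-Blk libraries. That of Pola1 was lost without MDSC-NP-Blk 1 (adjusted p = 0.0727) or MDSC-NP-Blk 4 (0.179, value 0.36), that of Dnmt1 without MDSC-NP-Blk 1 (0.0546), and that of Chaf1b without MDSC-NP-Blk 3 (0.0929). Scaling by library totals alone gave 11 genes with unequal steps in place of 6, and over all genes 1313 below 0 and 3655 above it in place of 2399 and 1629. For the other 33 genes a difference was not shown, and SEs of 0.085 to 0.32 set how small a difference these libraries could show.

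**Figure D3:**
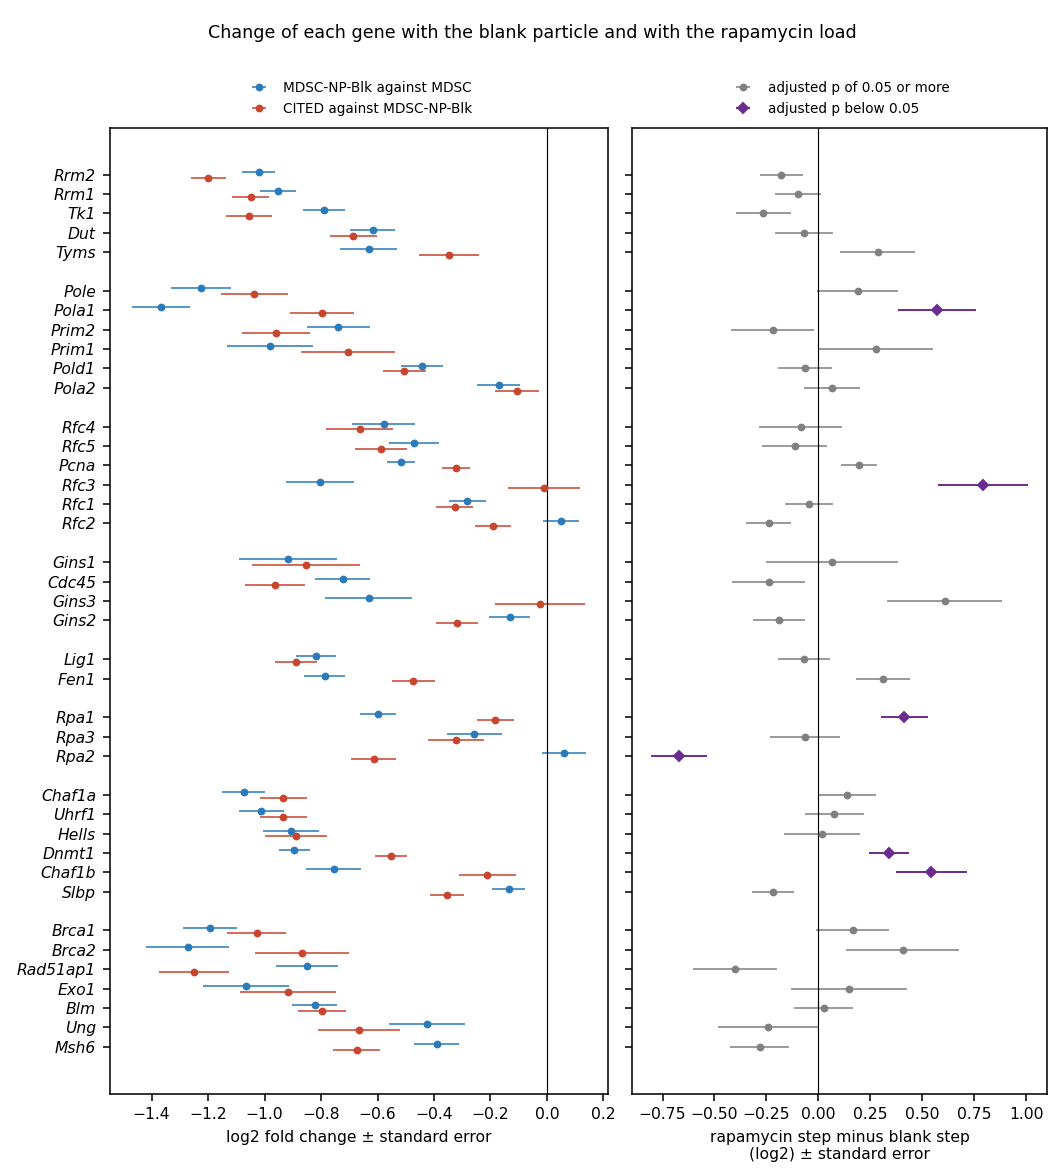
Left, log2 fold change with its standard error for each of the 39 genes, with the blank particle (MDSC-NP-Blk against MDSC, blue) and with the rapamycin load (CITED against MDSC-NP-Blk, red). Right, the rapamycin step minus the blank step on the log2 scale with its standard error, where purple diamonds mark the 6 genes with an adjusted p below 0.05, of which Rpa2 alone lies to the left of 0.

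Levels were compared between genes as CPM per kilobase of transcript. In MDSC the order was led by Pcna at 125 ± 1.57 (SD, n = 4), then Rrm2 at 55.9 ± 0.307, Rrm1 at 43 ± 1.94, and Dnmt1 at 41.9 ± 1.51, and it ended with Brca2 at 1.04 ± 0.199. Rrm1 and Dnmt1 did not differ beyond their spread. In CITED Pcna still led at 70.2 ± 2.02, and next came Slbp at 27 ± 1.51 and Rpa3 at 21 ± 2.06, while Rrm2 was at 12 ± 0.788, Rrm1 at 10.7 ± 0.658, and Brca2 at 0.237 ± 0.0465. Across the 39 genes, Spearman's rho between the log2 fold change from MDSC to CITED and transcript length (670 to 13419 bases) was −0.40, and that with the MDSC level was 0.04. Genes are not independent replicates, and these values only describe the group. Within libraries, the level of a gene relative to its mean was also related to length across 10543 genes, with rho of 0.22 to 0.35 in MDSC, −0.42 to 0.09 with the blank particle, and −0.34 to −0.19 in CITED. When this trend was removed, 38 of the 39 genes fell between CITED and MDSC, against 3555 of all 17676 tested genes. The median of the 39 was then −1.39.

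Other genes of the same pathways, 148 in 6 lists that do not include the 39, were also lower in part. Over all tested genes, 22.2% were lower and 22.2% higher between CITED and MDSC, the background for the counts that follow. Scaling by library totals alone ended every rise named for these lists except those of Pold4, Samhd1, Dguok, Tk2, Xpa, and Ercc1, and E2f4 then stood at −0.03. With the length correction, the named rises of E2f4 (0.099), Polb (0.16), and Neil2 (1.15) did not pass (edgeR adjusted p = 0.25, 0.19, and 0.079). Between CITED and MDSC, 19 of 25 other replication fork genes fell and 4 rose, with a median of −0.83. Top2a, the topoisomerase that untangles copied DNA, went from 11287 ± 421 to 5754 ± 673 to 2544 ± 87.8 normalized counts (SD, n = 4). The checkpoint mediator Clspn was at −2.45 ± 0.11 and the origin firing factor Ticrr at −2.40 ± 0.12. Pold4, the smallest subunit of polymerase delta, rose instead, from 1429 ± 64.2 in MDSC to 2812 ± 397 with the blank particle and 2974 ± 199 in CITED. Chtf8 of an alternative clamp loader (0.34 ± 0.065) and Rnaseh2a, which removes ribonucleotides from DNA (0.33 ± 0.086), also rose. Of 30 other nucleotide synthesis genes, 18 fell and 5 rose (median −0.49). Cad, the first enzyme of pyrimidine synthesis, fell with the blank particle (−1.24 ± 0.086) and stood at −0.07 ± 0.089 in the rapamycin step, which did not pass the threshold. The folate enzyme Shmt1 was at −1.47 ± 0.11 between CITED and MDSC. Genes that rose were Samhd1, which degrades deoxynucleotides, from 6986 ± 178 to 10532 ± 142 to 11365 ± 242, and the mitochondrial salvage kinases Dguok (0.93 ± 0.094) and Tk2 (0.79 ± 0.081).

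Among 35 other homologous recombination and crosslink repair genes, 28 fell and 1 rose (median −1.04). Brip1, the helicase partner of Brca1, fell from 594 ± 19.9 to 226 ± 29.2 to 85.6 ± 19.2, and the Fanconi gene Fancd2 and the recombination motor Rad54l were at −2.48 ± 0.11 and −2.06 ± 0.11. The nuclease gene Mus81 was the one that rose (0.51 ± 0.11). Of 23 other mismatch and base excision repair genes, 16 fell and 3 rose (median −0.64), with the glycosylase Neil3 at −1.81 ± 0.12 and the strand break sensor Parp1 at −0.78 ± 0.066. The genes that rose were the glycosylase Mpg (0.57 ± 0.15), the repair polymerase Polb (0.37 ± 0.097), and Neil2 (1.31 ± 0.53), which had only 10.4 ± 6.96 normalized counts in MDSC. Of 22 nucleotide excision and end joining genes, 10 fell and 5 rose (median −0.15), and the share that rose was close to the background. Prkdc and Xrcc6 of end joining were at −1.33 ± 0.14 and −0.95 ± 0.10. Among nucleotide excision genes, Ddb1 was at −0.30 ± 0.046, whereas Xpa (0.85 ± 0.12) and Ercc1 (0.78 ± 0.17) rose. Of 13 E2F and pocket protein genes, 9 fell and 1 rose (median −0.62). The atypical repressors E2f8 and E2f7 were at −2.28 ± 0.11 and −2.24 ± 0.11 and the pocket protein Rbl1 at −1.44 ± 0.081, while E2f4, a repressor of resting cells, rose slightly (0.24 ± 0.069). In the blank step the 6 lists, in the order given, had 17 of 25, 19 of 30, 24 of 35, 12 of 23, 8 of 22, and 8 of 13 genes lower (18.6% of all genes) and 4, 4, 1, 1, 4, and 0 higher (19.9%). In the rapamycin step they had 12, 11, 20, 5, 4, and 8 lower (11.4%) and 0, 5, 0, 2, 2, and 1 higher (10.5%).

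**Figure D4:**
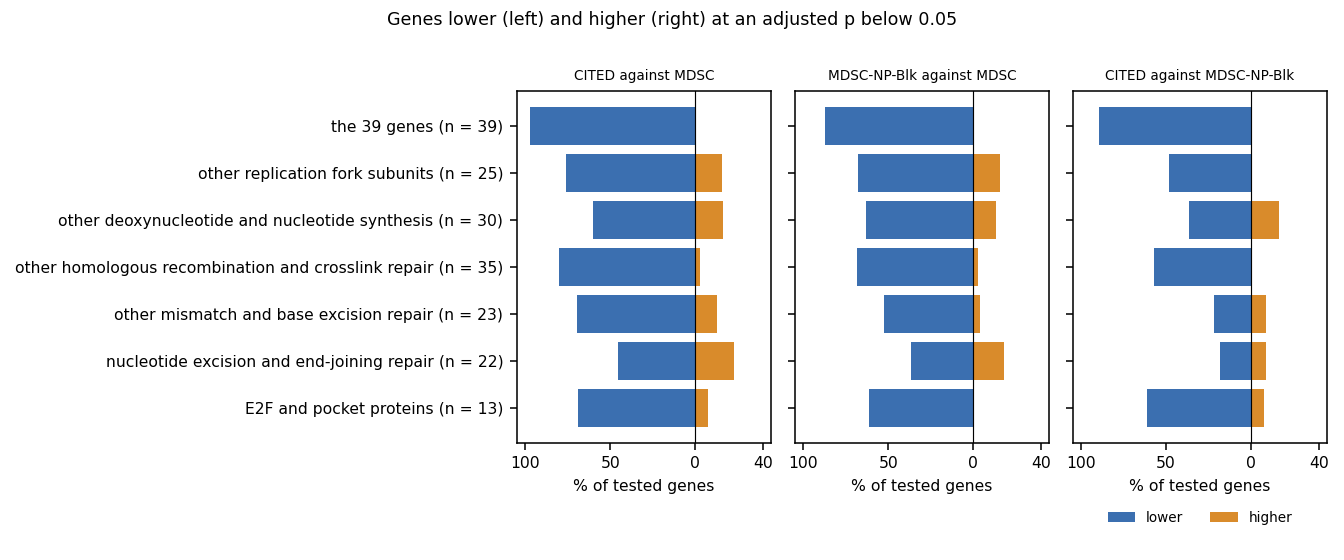
Share of the 39 genes and of each of 6 lists of other pathway genes that was lower (blue, drawn to the left) or higher (orange, drawn to the right) at an adjusted p below 0.05, as a percentage of the tested genes in the list, for each of the 3 comparisons. The 39 genes have 0 higher in any comparison, and nucleotide excision and end joining repair has 10 of 22 lower and 5 of 22 higher in CITED against MDSC.

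Markers of neutrophil precursors were also lower. All 10 genes of a neutrophil progenitor list, which includes genes for azurophil granule proteins, were lower in CITED than in MDSC. Their summed level was 3096 to 3329 CPM in MDSC, 1743 to 1827 with the blank particle, and 506 to 560 in CITED. Mpo, the myeloperoxidase gene, was at 1102 ± 57.2, 354 ± 51.6, and 51.9 ± 2.73 CPM in these groups (SD, n = 4), and Elane, neutrophil elastase, at 612 ± 39.5, 442 ± 7.94, and 63.3 ± 4.14. The summed level of a stem and early progenitor list stayed between 205 and 244 CPM in all libraries, with Myb lower (−1.97 ± 0.096) and Procr higher (2.14 ± 0.089) in CITED than in MDSC. A mature neutrophil list summed to 18791 to 19984 in MDSC, 27365 to 28004 with the blank particle, and 21460 to 23207 in CITED, and 7 of its 10 genes rose and 3 fell between CITED and MDSC with the main scaling, among them Mmp8 (1.47 ± 0.039) and Ngp (−0.41 ± 0.044). The corresponding sums of a monocyte list were 3197 to 3403, 5766 to 6210, and 5670 to 6031, although 5 of its 10 genes fell and 3 rose between CITED and MDSC. Cd14 went from 296 ± 11.5 to 1799 ± 106 to 2313 ± 41.4 CPM (SD, n = 4), whereas F13a1 was at −2.63 ± 0.079 between CITED and MDSC. Lymphocyte genes summed to at most 39.2 CPM and erythroid genes to at most 5.64, with the erythroid genes Slc4a1 and Ahsp at 0 in every library. Between CITED and MDSC, the macrophage list had 7 of 10 genes lower and 3 higher, with a sum of 618 to 655 CPM in MDSC and 761 to 827 in CITED. The dendritic list had 2 lower and 3 higher, close to the background, and the mast cell and basophil list 6 lower and 1 higher. The part of precursor or other cells in the falls of the 39 genes was not tested.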

How the data were processed

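RNA was enriched for poly(A) and sequenced as paired-end reads. The study describes 4 biologically independent replicates per group, and groups were taken from the sample titles. The authors quantified transcripts of GRCm39 (GENCODE, release not given in the sources used here) with Salmon 1.4.0 and summed them per gene with tximport, and they deposited whole-number counts per gene symbol, neither normalized nor filtered. An entry without a symbol, at 0 in every library, was left out.

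The 17676 genes whose counts summed to 2 or more over all libraries were tested with edgeR 4.0.16 in R 4.3.3 (TMM factors, glmQLFit and glmQLFTest, group as the only term), with p-values adjusted by Benjamini and Hochberg over all tested genes. Each SE is the absolute log2 fold change over the root of its F statistic. The processing was tested on simulated data, in which 209 of 17314 genes were called for CITED against MDSC, among them all 200 changed genes. As many of these were raised as lowered, and no trend with length was simulated. The simulation therefore does not test the scaling or the length trend of the real data. Alternatives were DESeq2 1.42.0, other scaling factors and filters, fits to only the 8 libraries compared, a block for replicate number, a loess correction for length (span 0.5), and leaving out each library. The genes and the lists were chosen with earlier results of these data known. From each pathway list, up to 3 genes per direction are named, those of lowest p-value among the genes passing the threshold, and from each cell type list at most the 2 most abundant and the 2 with the lowest p-value, of which the text names a part. Positions, transcript lengths, and promoters are those of GENCODE release 39 on GRCm39. Some of the genes selected by p-value, and some sequences, are not reported here.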

Additional observations from a re-analysis of the deposited data

Results flagged for a closer look

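In 4 of the 117 sets of 4 libraries (39 genes in 3 groups), 1 library stood apart from the other 3 by Dixon's test, and chance would give about 5.85 such sets. Tyms had 595 normalized counts in MDSC 2 and 473 to 492 in the other MDSC libraries. Prim2 had 361 in MDSC-NP-Blk 3 and 283 to 293 in the others of that group. Rfc1 had 2005 in MDSC 1 and 1862 to 1882 in the other MDSC libraries. Blm had 463 in MDSC-NP-Blk 1 and 509 to 517 in the others of that group. The sets concern 4 different genes.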

How the results depend on the processing

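Scaling by library totals alone moved the results in both comparisons with MDSC, and it also moved the median of all genes, to −0.32 for CITED against MDSC and −0.29 for MDSC-NP-Blk against MDSC. The medians of the 39 genes were then −1.58 and −1.02, with 21 genes called lower for MDSC-NP-Blk against MDSC and 11 with unequal steps, and all 39 were lower in both comparisons with MDSC. Over all genes, 1060 in place of 505 were called lower for MDSC-NP-Blk against MDSC, and 4968 in place of 4028 had unequal steps. With the length correction the median for CITED against MDSC was −1.39 (−1.39 with the replicate block as well). Rfc2 was at 0.0038 for CITED against MDSC with the length correction (0.00094 with the block) and at −0.21 for MDSC-NP-Blk against MDSC with library totals, where it passed the threshold. It passed as higher, at 0.14, in the latter comparison with the length correction and the block. Rpa2 was at −0.085 for MDSC-NP-Blk against MDSC with the length correction (−0.087 with the block) and at −0.20 with library totals, where it passed.

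With each library left out, 24 to 27 of the 39 genes were called lower for CITED against MDSC, 6 to 11 for MDSC-NP-Blk against MDSC, and 3 to 9 for CITED against MDSC-NP-Blk, the 3 without MDSC-NP-Blk 3. Over all tested genes, 1087 to 1197, 438 to 541, and 326 to 361 were called lower in the same order. Of the 39, 38 to 39, 32 to 34, and 32 to 35 were lower, against 3622 to 3993, 2969 to 3346, and 1806 to 2085 of all tested genes. Unequal steps were found in 4 to 7 of the 39, against 3399 to 4086 of all tested genes. The median of the 39 for CITED against MDSC was −1.36 to −1.25. For CITED against MDSC-NP-Blk, Rfc3 ranged from −0.088 to 0.053 and Gins3 from −0.17 to 0.071. Rfc3 turned positive without MDSC-NP-Blk 2, MDSC-NP-Blk 3, CITED 2, or CITED 4, and Gins3 without CITED 2 or CITED 3. The cause was not tested.

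The labels do not say that equal replicate numbers share a preparation. Residuals of same-numbered libraries of different groups correlated at −0.056 to 0.14, within the range of −0.16 to 0.16 for differently numbered ones. Of the 12 libraries, 2 correlated best with their own number in both other groups. With the replicate number as a block, 38, 34, and 35 of the 39 genes were lower and 25, 8, and 6 called in the order above, with 6 unequal steps, and medians of −1.30, −0.75, and −0.67. Over all tested genes, 3903, 3359, and 2160 were lower, 1086, 456, and 339 were called lower, and 4307 had unequal steps. The block changed no call of a single gene among the 39.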
